A study of Mus musculus with 34 samples.

Results

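The genes described here are Eng, Acvrl1, Tgfbr2, Bmp4, Bmper, Smad6, Smad7 and Id1, 8 mouse genes of the endoglin and BMP/TGF-beta pathway in blood vessels. They are described by the positions of open chromatin inside each gene or within 50 kb of its interval (mm10). A position is a cluster of ATAC-seq summits, taken from any of 19 summit lists, in which each summit lies within 250 bp of the next. This gave 172 of the 156849 positions of the series, built from 861 summits, and 117886 positions of the series lay within 50 kb of some protein-coding gene.

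ATAC-seq uses a transposase to cut and tag open DNA. It was applied here to mouse embryonic fibroblasts (MEF) and to embryoid bodies (EB, clumps of embryonic stem cells left to differentiate) in which doxycycline switches on Etv2, an ETS factor needed for the first endothelial and blood cells. The 34 samples form 17 groups of 2. The fibroblasts, described in the protocol as iHA-Etv2 MEF, comprised uninduced cells (day 0), induced cells on days 1, 2 and 7, and induced day-7 cells positive for Flk1, the VEGF receptor that marks early vascular progenitors. Brg1-knockdown fibroblasts comprised cells on day 0 and cells with and without doxycycline on days 1, 2 and 7. Brg1 is the ATPase of the SWI/SNF chromatin remodelling complex. EB comprised induced Flk1-positive, induced unsorted and uninduced groups with a time label of 12 h. Their titles read D25 instead, a difference that was not resolved, and the time label is used here. Brg1-floxed EB on day 4 were all given doxycycline, with or without 4-hydroxytamoxifen (4OHT), and the series design names Brg1 knockout EB at this time. The labels do not name the knockdown reagent, the recombinase or its driver, the number of clones, or animals or cultures behind a replicate. Open chromatin at a gene does not measure its RNA or protein, so neither the knockdown nor the deletion of Brg1 was checked. EB at 3 h, also named in the series design, were not analysed here.

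In 15 groups, which hold 30 samples, both replicates name 1 shared list, so their comparisons have no replicate error and no p-value. Only the 4 floxed EB samples came with separate lists. Lists held from 11282 summits, in uninduced knockdown fibroblasts on day 7, to 85800 in uninduced EB, and read depth was not analysed here. List membership therefore moves with the length of a list. Equal lengths were tried for the shares over the 8 genes, the floxed counts over the 8 genes and the counts by gene in some comparisons. Not every gene value that they moved is given. The pathway genes, the positions kept from uninduced fibroblasts and the floxed counts by gene were not cut to equal lengths. Each summit's score fits the −log10 q of peak calling, a measure that grows with depth. It is therefore given here only to place a summit inside its own list, mostly as its percentile there. Lists differ in how they were written. No knockdown or floxed list held a score with more than 6 significant digits, whereas from 27.6% to 55.9% of the scores in each fibroblast and EB list did, and a peak never had more than 1 summit in floxed lists. An effect of knockdown and an effect of processing cannot be told apart. Of 5 pluripotency genes (Pou5f1, Nanog, Sox2, Esrrb and Tdgf1), 0 had a position within 1 kb of a gene end in any fibroblast or knockdown list, and 4 had one in each EB list. Of 8 fibroblast genes, 6 had one in uninduced fibroblasts and 7 in each EB list, so these genes did not separate the tissues. In the day-7 knockdown lists 1 and 2 of them had one.

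Endoglin, which Eng encodes, is a co-receptor of endothelial cells. It works with Acvrl1 (ALK1), a type I receptor for BMP9 and BMP10, and mutations in either gene cause hereditary haemorrhagic telangiectasia in humans. Tgfbr2 is the type II receptor for TGF-beta. Bmp4 is the ligand that induces mesoderm, and Bmper is a secreted protein that binds BMPs and tunes their activity around vessels. Activated receptors phosphorylate SMAD proteins, which switch on Id1, a helix-loop-helix inhibitor of differentiation, and also Smad6 and Smad7, the inhibitory SMADs that shut the pathway down again.

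Of the 172 positions, 58 (33.7%) occurred in fibroblast or knockdown lists alone, 68 (39.5%) in EB or floxed EB lists alone and 46 (26.7%) in both. Near all protein-coding genes these shares were 36.1%, 40.8% and 23.2%, so the 8 genes as a group stood close to the rest of the genome. They differed among themselves. Bmp4 had 9 of its 11 positions in EB or floxed EB lists alone and 0 in fibroblast or knockdown lists alone, whereas Bmper had 17 of its 30 positions in fibroblast or knockdown lists alone. The gene intervals differ in length, from 1160 bp for Id1 and 7145 bp for Bmp4 to 262140 bp for Bmper. Counts of positions are therefore not on 1 scale across genes. Of the 30 Bmper positions, 13 occurred in 1 list only. Altogether 47 positions occurred in 1 list only, and none occurred in all 19 lists. The same counts were not made near all genes. Of the 172 positions, 170 were in neither of the day-7 knockdown lists. Those lists were short everywhere: of the 117886 positions near all genes, 9334 were in either of them.

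Positions around Eng, Acvrl1 and Id1 in part belonged to neighbouring genes. A position is called a neighbour's here when it lies inside, or within 1 kb of an end of, another protein-coding gene. That was the case for 16 of 22 positions around Eng, which lies among Ak1, Fpgs, Cdk9, Sh2d3c, St6galnac4, St6galnac6 and 6330409D20Rik, for 8 of 22 around Acvrl1 and for 13 of 21 around Id1. It was the case for 3 of 15 around Tgfbr2 and 2 of 31 around Smad7, and for 0 around Bmp4, Bmper and Smad6. Of the 7 positions found in 17 lists, all but the day-7 knockdown pair, 4 were neighbours' positions. They were those inside Fpgs, at an end of Cdk9, at an end of Fignl2 and at an end of Acvr1b, itself an activin type I receptor gene. The others were the starts of Tgfbr2 and Bmper and a position at −24.5 kb from the Smad7 interval.

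**Figure D1:**
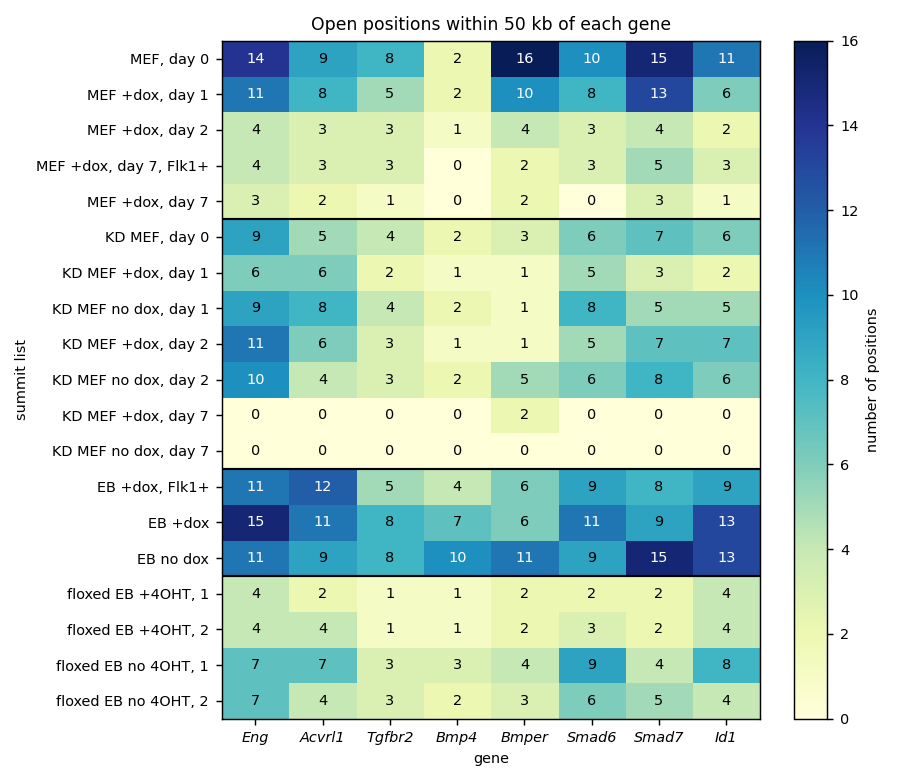
Number of positions within 50 kb of each of the 8 genes (columns) in each of the 19 lists (rows, with black lines between fibroblast, knockdown, EB and floxed EB lists). Uninduced fibroblasts had 16 positions around Bmper and 2 around Bmp4, while uninduced EB had 11 and 10, and the day-7 knockdown lists were nearly empty.

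The starts of the genes fell into 2 sets. Those of Eng and Bmp4 were in few lists: the position at the Eng start (chr2:32646554-32646898, mm10) was in all 3 EB lists and both floxed lists without 4OHT, and in 0 of the 12 fibroblast and knockdown lists. The Bmp4 start (chr14:46390525-46390649) was in the 3 EB lists only. The position at the lower-coordinate end of the Acvrl1 interval (chr15:101128652-101129081) was in 4 lists, the 3 EB lists and uninduced fibroblasts. By contrast the starts of Tgfbr2 (chr9:116174666-116175500) and Bmper (chr9:23222724-23223522) were in 17 lists, and that of Smad6 (chr9:64022097-64023125) was in 16. The position at the lower-coordinate end of the Id1 interval (chr2:152735969-152736297) was in 14. The promoter sequences of Eng, Bmp4 and Tgfbr2, from RefSeq on GRCm38.p6, are shown for this contrast, 250 bases before to 30 after the start, 5′ to 3′ on the gene's strand. Capitals mark matches to the ETS motifs searched, CCGGAA and CAGGAA on either strand, because Etv2 is an ETS factor. Other GGAA stretches in these sequences are not marked. The stretches are chr2:32646345-32646624 on the plus strand for Eng, chr14:46390640-46390919 on the minus strand for Bmp4 and chr9:116175334-116175613 on the minus strand for Tgfbr2.
Eng: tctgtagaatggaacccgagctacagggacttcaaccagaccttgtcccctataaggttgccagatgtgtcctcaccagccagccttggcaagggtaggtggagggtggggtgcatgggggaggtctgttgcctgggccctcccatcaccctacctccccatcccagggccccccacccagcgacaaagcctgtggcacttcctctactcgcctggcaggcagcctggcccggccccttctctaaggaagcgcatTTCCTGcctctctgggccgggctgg
Bmp4: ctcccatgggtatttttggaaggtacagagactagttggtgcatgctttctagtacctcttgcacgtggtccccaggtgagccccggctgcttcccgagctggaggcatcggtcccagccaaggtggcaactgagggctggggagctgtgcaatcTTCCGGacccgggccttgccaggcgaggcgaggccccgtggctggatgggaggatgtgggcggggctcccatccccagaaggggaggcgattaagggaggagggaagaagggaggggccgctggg
Tgfbr2: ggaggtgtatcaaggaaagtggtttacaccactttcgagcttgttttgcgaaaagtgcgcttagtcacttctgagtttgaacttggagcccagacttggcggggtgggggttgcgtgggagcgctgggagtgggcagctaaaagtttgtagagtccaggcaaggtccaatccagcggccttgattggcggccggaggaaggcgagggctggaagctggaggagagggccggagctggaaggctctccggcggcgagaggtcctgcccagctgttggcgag

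A promoter was given for 5 of the 8 genes, Eng, Bmp4, Tgfbr2, Bmper and Smad6. The motifs searched, on both strands, were CCGGAA as the first ETS motif, CAGGAA as the second ETS motif, GGCGCC for BMP-activated SMADs, CAGACA for SMADs in general, AGATAA for GATA factors and TGANTCA for AP-1. The Eng promoter held 1 CAGGAA, in reverse orientation with its first printed base at 6 after the start, and the Bmp4 promoter held 1 CCGGAA, in reverse orientation 95 bases before it. The other 3 promoters held none of the 6 motifs. Among 17273 promoters cut in the same way, 18.5% held the first ETS motif and 27.2% the second, 14.2% the BMP-SMAD motif, 17.1% the general SMAD motif, 9.73% the GATA motif and 6.88% the AP-1 motif, so a match is no more than a description. The promoters in few lists held fewer CpG dinucleotides: 6 in Eng and 12 in Bmp4, against 15 in Tgfbr2, 26 in Bmper and 27 in Smad6. The median over the 17273 promoters was 12.0.

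Induced EB had more positions than uninduced EB around Eng, Acvrl1 and Smad6, and fewer around Bmp4, Bmper and Smad7. Induced EB had 15 positions around Eng, against 11 in uninduced EB, with 4 gained and 0 lost. Gained means present in the induced list and not in its control, and lost means the reverse; both describe list membership. In bulk samples an opening in fewer cells and a weaker opening in each cell cannot be told apart. Acvrl1 had 11 positions in induced EB and 9 in uninduced EB, with 3 gained and 1 lost, and Smad6 had 11 in induced EB and 9 in uninduced EB, with 4 gained and 2 lost. The balance of Smad6 turned to −1 when summits were joined within 100 bp. In induced against uninduced EB, Bmp4 had 7 against 10 (0 gained, 3 lost), Bmper 6 against 11 (0 gained, 5 lost) and Smad7 9 against 15 (0 gained, 6 lost). Tgfbr2 had 8 in both and Id1 had 13 in both, each with 1 gained and 1 lost. Over the 8 genes this made 13 of 99 positions gained (13.1%, exact Clopper-Pearson 95% interval 7.18 to 21.4) and 19 lost (19.2%, 12.0 to 28.3). Near all genes 14.9% of positions were gained and 22.5% were lost, so the total was near the background and the genes differed in direction around it. With both lists cut to the length of the shorter the balance over the 8 genes turned, to 16.8% gained and 15.8% lost, against 17.6% and 18.5% near all genes. These intervals cover counting error only, and neighbouring positions are not independent.

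Flk1-positive induced EB cells, which are sorted for a receptor of vascular progenitors, were compared with the same uninduced EB list. Acvrl1 had the largest net gain, with 12 positions in Flk1-positive cells against 9 in uninduced EB, 6 gained and 3 lost. Its balance of 3 turned to −2 when scores had to be at least 10. Eng had 11 in both groups (2 gained, 2 lost), and Smad6 had 9 in both (2 gained, 2 lost). In Flk1-positive against uninduced EB, Bmp4 had 4 against 10 (0 gained, 6 lost), Smad7 8 against 15 (1 gained, 8 lost), Bmper 6 against 11 (1 gained, 6 lost), Tgfbr2 5 against 8 (2 gained, 5 lost) and Id1 9 against 13 (1 gained, 5 lost). In all, 15 of 101 positions were gained (14.9%, 8.56 to 23.3) and 37 were lost (36.6%, 27.3 to 46.8), where 8.88% and 37.8% of positions near all genes were gained and lost. With both lists cut to the length of the shorter, 29.8% were gained and 23.8% lost, against 18.2% and 20.4% near all genes. By gene, gained minus lost positions were then 3 for Eng, 6 for Acvrl1, 3 for Smad6, 0 for Smad7 and 0 for Id1. They were −1 for Tgfbr2, −3 for Bmp4 and −3 for Bmper, so the net losses around Smad7 and Id1 were not seen at equal lengths. Against induced unsorted EB, Flk1-positive cells had 8 of 88 positions gained (9.09%) and 24 lost (27.3%), and the background was 6.70% and 30%. Here the cut to equal lengths turned the balance, to 19.4% gained and 11.1% lost, against 14.5% and 15.5% near all genes.

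Positions present in both induced EB lists and missing from the uninduced list numbered 8 among the 106 positions found in any EB list (7.55%, with 4.30% near all genes): 3 around Acvrl1, 2 around Eng, 2 around Smad6, 1 around Tgfbr2 and 0 around Bmp4, Bmper, Smad7 and Id1. With the 3 lists cut to equal lengths there were 11 of 84 (13.1%, with 7.26% near all genes). Of the 8, 7 were in no fibroblast or knockdown list. Conversely, 18 positions (17%, with 20% near all genes) were in uninduced EB alone, and 5 of those lay around each of Bmper and Smad7 and 3 around Bmp4.

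The position with the highest scores among the 8 lay inside Eng, 9.36 kb downstream of the start (chr2:32655945-32655961). Its score was 26.1 in Flk1-positive EB, at percentile 79.1 of that list, and 26.9 in induced EB, at percentile 69.6, and no other list held a summit there. The Eng start itself was already present in uninduced EB. Its summit stood at percentile 60.3 in Flk1-positive EB, at 62.7 in induced EB and at 28.5 in uninduced EB. The other Eng position of this kind, at −25.2 kb from the start and at the ends of Ak1 and St6galnac6, was also in the uninduced and day-1 fibroblast lists and in 3 knockdown lists. Induced EB alone had 2 more, at −8.55 kb from the start at percentile 17.9 and 6.97 kb past the end of Eng, inside Fpgs. The position 33.65 kb inside Eng (chr2:32680200-32680274) ran the other way: it was in 8 fibroblast and knockdown lists and in no EB list.

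**Figure D2:**
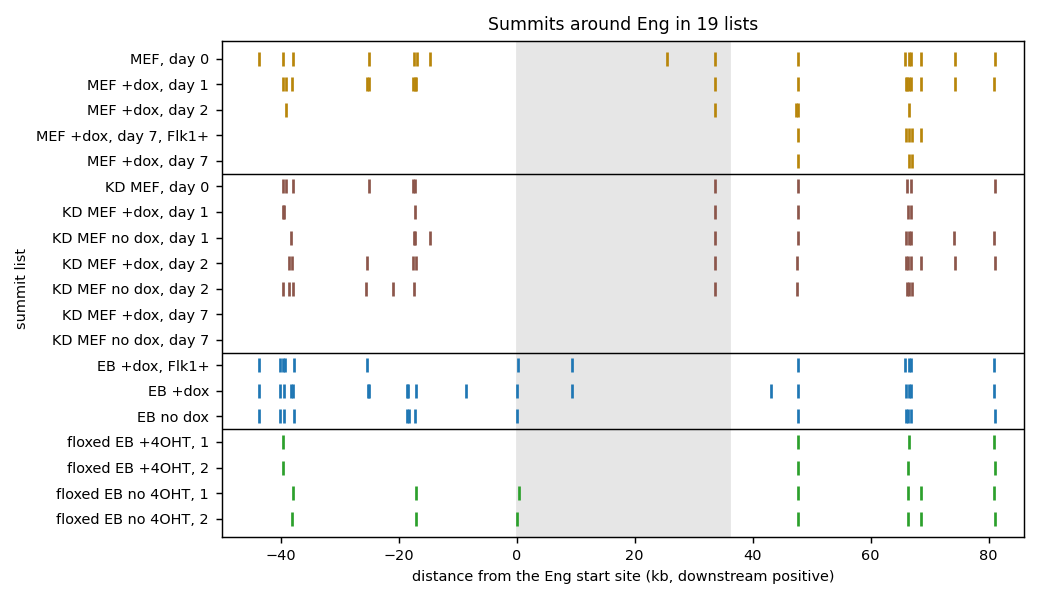
Summits around Eng in 19 lists, by distance from the Eng start site in kb (x axis, downstream positive). Each tick is 1 summit, rows are lists, and the grey band is the Eng interval. The tick 9.36 kb inside the gene appears in the Flk1-positive and induced EB rows only, the start in EB rows and in floxed rows without 4OHT, and the tick at 33.65 kb in fibroblast and knockdown rows only. Most columns of ticks beyond 45 kb lie at Fpgs, Cdk9 and Sh2d3c.

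Around Acvrl1 the 3 positions lay 5.81 kb inside the interval (chr15:101134305-101134356) and 2.79 and 3.22 kb past its upper end (chr15:101148103-101148146 and chr15:101148413-101148711). They were weaker than the position in Eng. The first stood at percentile 17.7 in Flk1-positive EB and 24.6 in induced EB, and the second at 32.9 in Flk1-positive EB and 29.5 in induced EB. A pair of positions on the other side of the gene, at −35.4 and −30.3 kb from its lower end, were in all 3 EB lists and both floxed lists without 4OHT, and in no other list. The single Tgfbr2 position lay 28.8 kb downstream of its start (chr9:116146553-116146643), at percentile 9.56 in Flk1-positive EB and 37.3 in induced EB. Around Smad6, 1 position lay near the far end of the gene (chr9:63953754-63953758). The other lay 23.2 kb upstream (chr9:64045237-64045335), at percentile 59.0 in Flk1-positive EB and 53.2 in induced EB. It was also in both floxed lists without 4OHT and in neither with it.

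Around Bmp4, the positions at the start, 7.88 kb upstream and 10.2 kb downstream of the start were in all 3 EB lists. At the start the summit stood at percentile 11.7 in Flk1-positive EB, 49.7 in induced EB and 52.4 in uninduced EB. Upstream it stood at 5.24 in Flk1-positive EB, 56.4 in induced EB and 67.3 in uninduced EB. These lists held 58281 summits in Flk1-positive EB, 78303 in induced EB and 85800 in uninduced EB, so their percentiles are not on 1 scale. The position 3.25 kb inside the gene was the most shared near Bmp4, present in 14 lists, and it was the only one of the gene's positions in both floxed lists with 4OHT. It also lay within 1 kb of the start of Gm15222, and the position 10.2 kb downstream lay within 1 kb of the start of Gm15217. For Bmper, a position 60.95 kb inside the gene (chr9:23283810-23284092) stood at percentile 89.6 in Flk1-positive EB, 93.9 in induced EB and 93.4 in uninduced EB, among the highest of each list. It was in 0 of the 5 fibroblast lists without knockdown. The position at the lower-coordinate end of Id1 was in every EB, fibroblast and knockdown list other than the day-7 knockdown pair, at percentile 46.0 in Flk1-positive EB, 49.6 in induced EB and 67.0 in uninduced EB.

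**Figure D3:**
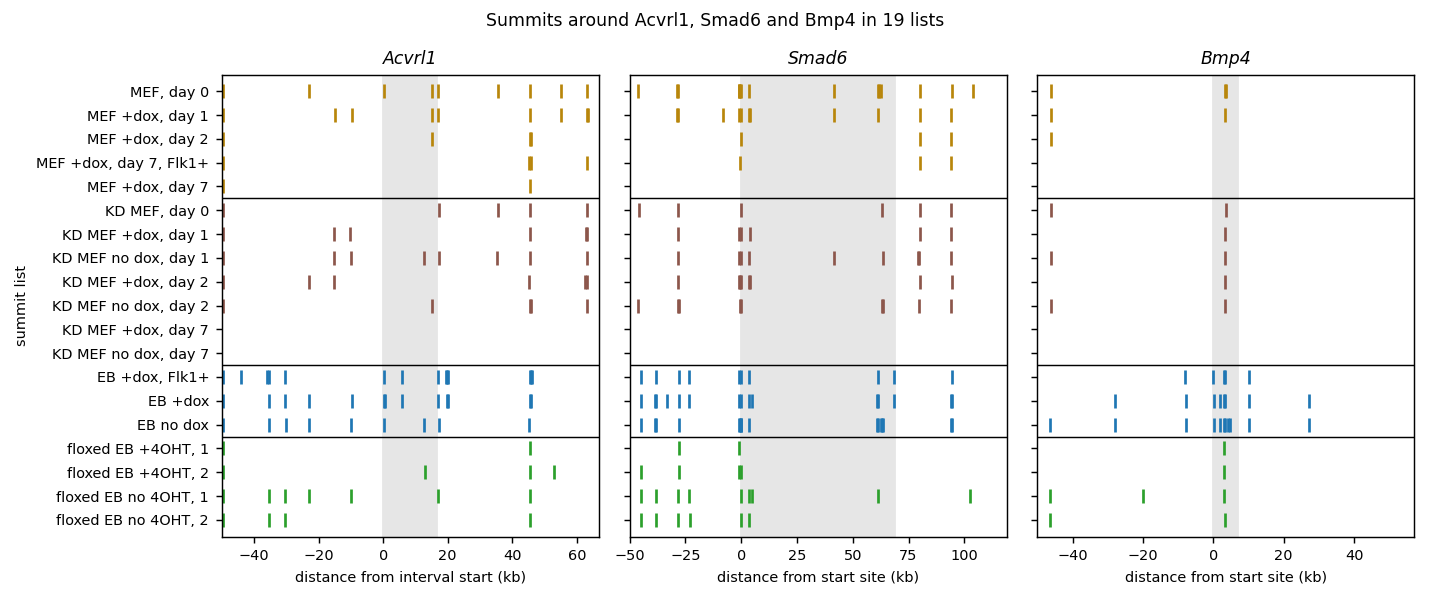
Summits around Acvrl1, Smad6 and Bmp4 in 19 lists (rows), by distance in kb from the start site of Smad6 and Bmp4 and from the lower-coordinate end of the Acvrl1 interval (x axes). Each tick is 1 summit and grey bands are the genes. Acvrl1 shows ticks at 19.6 and 20.04 kb in the Flk1-positive and induced EB rows only, Smad6 a tick at −23.2 kb in those rows and the floxed rows without 4OHT, and Bmp4 ticks in EB and floxed rows, with fibroblast and knockdown rows holding ticks at 3.25 and −46.1 kb.

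In fibroblasts the lists lost positions around these genes after doxycycline and gained few. Uninduced fibroblasts held 85 positions around the 8 genes. After induction there were 63 at day 1, 24 at day 2 and 12 at day 7, with 23 in the Flk1-positive day-7 cells. On day 1, 7 of 92 positions were gained (7.61%, 3.11 to 15.1) and 29 were lost (31.5%, 22.2 to 42.0), against 10.8% and 31.0% near all genes. On day 2, 0 of 85 were gained (interval 0 to 4.25) and 61 were lost (71.8%, 61 to 81.0), against 3.79% and 61.9%. On day 7, 0 of 85 were gained and 73 were lost (85.9%, 76.6 to 92.5), against 3.61% and 75.6%. Flk1-positive day-7 cells had 1 of 86 gained (1.16%) and 63 lost (73.3%, 62.6 to 82.2), against 6.76% and 57.8%. For day 7 and for Flk1-positive cells the share lost near the 8 genes had an interval above the share near all genes. All of these comparisons share the uninduced list.

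Cut to equal lengths, the same lists gave a smaller loss. On day 1, 13.9% were gained and 20.3% lost, against 16.6% and 21.2% near all genes. On day 2, 18.9% were gained and 35.1% lost, against 17.7% and 28.4% near all genes. On day 7 it was 12% gained and 52% lost, against 20.6% and 39.2%. In Flk1-positive cells it was 15% gained and 42.5% lost, against 21.9% and 30.3%. The exact intervals of the lost shares, 31.3 to 72.2 on day 7 and 27 to 59.1 in Flk1-positive cells, then held the share near all genes. More positions were lost than gained near the 8 genes in each of these. By gene, Tgfbr2, Smad6 and Smad7 then each had 1 more position gained than lost on day 1.

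Of the 85 positions in uninduced fibroblasts, 10 were in all 4 induced lists (11.8%, with 19.3% near all genes) and 28 were in none (32.9%, with 32.5% near all genes). The 10 included the starts of Tgfbr2 and Bmper. Bmper had 16 positions on day 0, 10 on day 1, 4 on day 2 and 2 on day 7. Over the same days Eng had 14, 11, 4 and 3, and its 3 on day 7 were all at Fpgs and Cdk9. Smad6 had 10, 8, 3 and 0, and Bmp4 had 2, 2, 1 and 0. Acvrl1 had 9, 8, 3 and 2, Tgfbr2 had 8, 5, 3 and 1, Smad7 had 15, 13, 4 and 3, and Id1 had 11, 6, 2 and 1. The Eng start was in none of the 5 fibroblast lists. The 1 gained position of the Flk1-positive cells lay at −6.4 kb from the Id1 interval, and 3 knockdown lists also held it.

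Flk1-positive cells held 11 of 23 positions that unsorted day-7 fibroblasts lacked (47.8%, 26.8 to 69.4), and lacked 0 of theirs, against 48.3% and 7.48% near all genes. Smad6 accounted for 3 of the 11, with 3 positions in Flk1-positive cells and 0 in unsorted cells, among them its start. Tgfbr2, Smad7 and Id1 accounted for 2 each, and Eng and Acvrl1 for 1 each. With equal list lengths 20% were gained and 13.3% lost, against 30.8% and 18.9% near all genes.

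**Figure D4:**
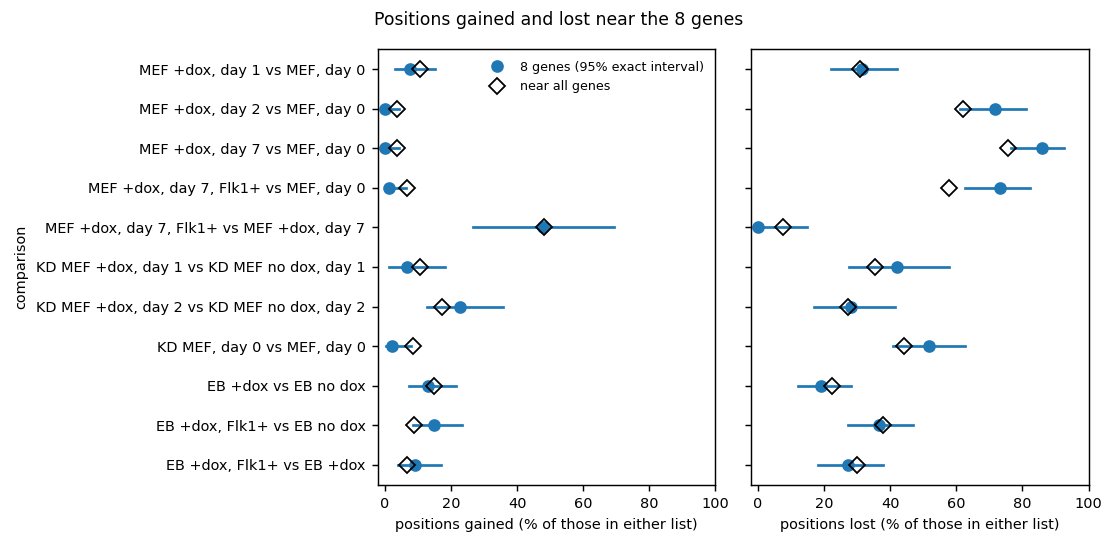
Share of positions gained (left) and lost (right) in each comparison, in percent of the positions in either list. Filled circles are positions near the 8 genes with exact 95% intervals, and open diamonds are positions near all protein-coding genes. The losses of day-7 and Flk1-positive fibroblasts, 85.9% and 73.3%, lie to the right of their diamonds at 75.6% and 57.8%. The day-7 knockdown comparison, with 2 positions, is left out.

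In Brg1-knockdown fibroblasts, doxycycline left 26 positions on day 1, against 42 without it, and 41 on day 2, against 44. On day 1, 3 of 45 were gained (6.67%) and 19 were lost (42.2%, 27.7 to 57.8), against 10.6% and 35.3% near all genes. At equal lengths 25.7% were lost on day 1, against 22.8% near all genes. On day 2, 13 of 57 were gained (22.8%, 12.7 to 35.8) and 16 were lost (28.1%), against 17.3% and 27.2%. At equal lengths the day-2 balance turned, to 30.4% gained and 26.8% lost, against 21.3% and 20.3%. The day-2 gains were 3 each around Eng, Acvrl1, Smad7 and Id1 and 1 around Smad6, whereas Bmper lost 4 and gained 0. On day 7 the induced list held 2 positions and the uninduced list 0. Both lay near Bmper, 60.95 kb inside it and 37.8 kb past its end, so 2 of 2 were gained, against 31.0% gained and 20.7% lost near all genes. Knockdown cells on day 0 had 42 positions, against 85 in uninduced fibroblasts without knockdown. In that comparison 2 of 87 were gained (2.30%) and 45 were lost (51.7%, 40.8 to 62.6), against 8.55% and 44.1% near all genes, and Bmper had 3 positions in knockdown cells against 16 without knockdown. At equal lengths 22.8% were gained and 26.3% lost, against 21.7% and 22.8%. This last comparison also sets differently written lists side by side.

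In floxed EB the 8 genes together had fewer positions in each list with 4OHT than in either list without it. The 2 lists with 4OHT held 18 and 21 positions, and the 2 without it held 45 and 34, so the groups did not overlap. The means were 19.5 ± 2.12 with 4OHT and 39.5 ± 7.78 without it (SD, n = 2 each), a difference of −20. An exact two-sided permutation test gave p = 0.333, the smallest that 2 against 2 allows. The ratio of means was 0.494 for the 8 genes and 0.704 for positions near all genes, whose counts were 15823 and 17617 with 4OHT and 26589 and 20933 without it. At equal list lengths the counts were 18 and 18 with 4OHT and 22 and 21 without it, a difference of −3.5. Within 10 kb of the genes they were 8 and 9 with 4OHT and 17 and 9 without it, so the groups shared a value there (difference −4.5, exact permutation p = 0.667).

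Of 8 fibroblast marker genes 2 and 2 had a position at a gene end with 4OHT, against 6 and 5 without it. Of 7 endothelial genes 1 and 1 had one with 4OHT, against 2 and 3 without it, and of 5 pluripotency genes 4 and 4 had one with 4OHT, against 3 and 4 without it. The part of cell type in the result was not tested.

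By gene, Eng had 4 and 4 positions with 4OHT, against 7 and 7 without it. In the same order, with against without 4OHT, Smad6 had 2 and 3 against 9 and 6. Tgfbr2 had 1 and 1 against 3 and 3, Smad7 had 2 and 2 against 4 and 5, and Bmper had 2 and 2 against 4 and 3. Bmp4 had 1 and 1 against 3 and 2. In these 6 genes the groups did not overlap, while Acvrl1, with 2 and 4 against 7 and 4, and Id1, with 4 and 4 against 8 and 4, had a value in common. Of all genes with a position in a floxed list, 29.3% had fewer positions in both lists with 4OHT than in either without it.

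**Figure D5:**
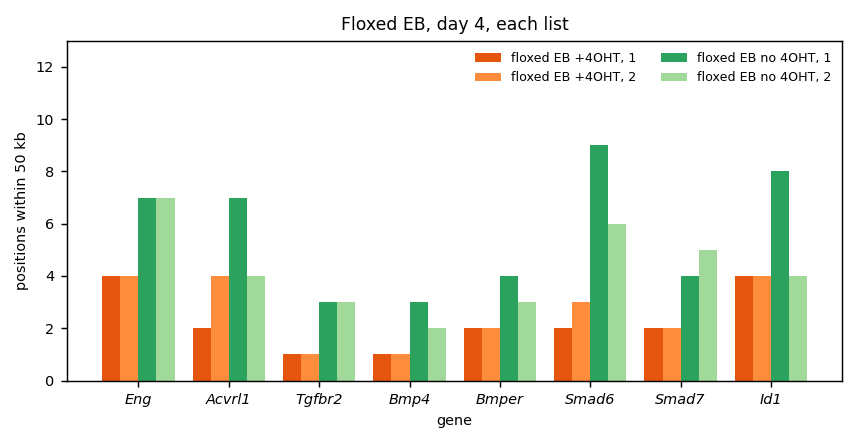
Positions within 50 kb of each gene in the 4 floxed EB lists, as bars for the 2 lists with 4OHT (orange) and the 2 without it (green). Eng has 4 and 4 with 4OHT and 7 and 7 without it, and Smad6 has 2 and 3 with 4OHT and 9 and 6 without it.

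Of 53 positions in any floxed list, 14 were in both lists without 4OHT and in neither with it (26.4%, 15.3 to 40.3, with 12.1% near all genes). They were 4 around Eng, 3 around Smad6, 2 each around Acvrl1 and Smad7, 1 each around Tgfbr2, Bmp4 and Bmper, and 0 around Id1. Leaving out the first list without 4OHT gave 45%, with 23.8% near all genes, and leaving out the second gave 55.1%, with 35.1%. Among the 14 were the Eng start, the Smad6 position 23.2 kb upstream and the Acvrl1 pair at −35.4 and −30.3 kb. At the Eng start the scores were 4.08 and 2.37 in the lists without 4OHT, at percentiles 22.8 and 3.18, so these summits were close to the limit of calling. Of the 14, 11 were also in induced EB at 12 h and 5 in some fibroblast or knockdown list. These counts were not made for such positions near all genes, so they are a description only. The reverse, present in both lists with 4OHT and neither without it, held for 1 position, inside St6galnac6 at −39.55 kb from the Eng start (1.68% near all genes). At equal list lengths 5 of 32 positions (15.6%) were in both lists without 4OHT and in neither with it, with 7.77% near all genes. In a 10 kb window 3 of 19 were (15.8%, 3.38 to 39.6), with 11.1% near all genes. The interval of the 10 kb window thus held the share near all genes.

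Another 14 positions were in all 4 floxed lists (26.4%, with 39.7% near all genes). Of these, 13 were in some fibroblast or knockdown list and 7 were neighbours' positions, counts that were not made near all genes. All 5 of those around Eng and Acvrl1 were neighbours' positions, namely those inside Fpgs, at an end of Cdk9, inside Sh2d3c, at an end of Fignl2 and at an end of Acvr1b. The starts of Tgfbr2, Bmper and Smad6 were in all 4 lists too. At the Tgfbr2 start the percentiles, in lists of different length, were 22.4 and 22.3 with 4OHT and 91.0 and 73.7 without it. At the Bmper start they were 19.9 and 36.1 with 4OHT and 73.2 and 56.7 without it.

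The wider pathway was described with 41 further genes, 11 ligands, 9 receptors, 6 signal transducers, 10 inhibitors and 5 targets. In induced against uninduced EB, 13 of the 41 had more gained than lost positions (31.7%) and 20 had more lost (48.8%), against 26.5% and 43.6% of all genes. The median of gained minus lost was 0 for the list and for all genes. By role, 3 of the 6 signal transducers had more gained and 0 had more lost, while 0 of the 5 targets had more gained and 4 had more lost. Nodal, the TGF-beta family ligand of early mesoderm, had 5 gained and 2 lost. Bambi, a decoy receptor, had 3 gained and 1 lost, and Bmp10, a ligand of Acvrl1, had 2 gained and 0 lost. Further genes tied with Bambi and Bmp10 in gained minus lost, and ties were taken in order of symbol. Ltbp1, which anchors latent TGF-beta in the matrix, had 0 gained and 7 lost, Bmp2 had 0 and 4, and the receptor gene Bmpr1b had 2 and 6.

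Flk1-positive EB cells had more gained than lost positions, against uninduced EB, at 5 of the 41 genes and more lost at 30 (12.2% and 73.2%, against 9.07% and 70.7% of all genes). Smad5, a BMP-responsive SMAD, had 2 gained and 0 lost, and Bmpr1b had 0 gained and 9 lost. Against induced unsorted EB, 3 genes had more gained and 32 had more lost (7.32% and 78.0%, against 8.29% and 64.5%), and Nodal had 0 gained and 7 lost. A position in both induced EB lists and not in uninduced EB lay near 16 of the 41 genes (39.0%, with 24.5% of all genes). Acvr1b had 3 of these, the same 3 as Acvrl1, whose window it shares.

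In fibroblasts 29 of the 40 pathway genes with a position had more lost than gained on day 1 and 6 had more gained (72.5% and 15%, against 62.3% and 12.5% of all genes). On day 2, on day 7 and in Flk1-positive day-7 cells, 39 of 40 had more lost (97.5% each, against 88.3%, 91.5% and 85.4%) and 0 had more gained (against 2.82%, 2.90% and 3.83%). Ltbp1 had 2 gained and 22 lost in Flk1-positive cells, and Smad3, the TGF-beta-responsive SMAD, had 0 gained and 10 lost there. Flk1-positive cells against unsorted day-7 cells had 27 of 37 genes with more gained and 1 with more lost (73.0% and 2.70%, against 67.6% and 6.52%).

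In knockdown fibroblasts the day-1 counts were 5 genes with more gained and 29 with more lost (12.2% and 70.7%, against 9.98% and 56.9%). On day 2 they were 18 and 11 of 40 (45% and 27.5%, against 24.1% and 41.2%). Bmp6, Bmpr2, the BMP type II receptor gene, and Chrd, which encodes the BMP antagonist chordin, had 2 gained and 0 lost each. They were named by order of symbol, as another gene had the same counts. On day 7 they were 3 and 5 of 23 (13% and 21.7%, against 36.5% and 23.5%). Knockdown against no knockdown on day 0 gave 1 gene with more gained and 36 with more lost (2.50% and 90%, against 7.48% and 74.6%).

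The genes most like each member were found from the number of summits within 50 kb per 10000 summits of a list, by Pearson's r over the 19 lists, which share libraries and depth. They are a description, and no p is given. Nearest to Eng were Maml2 (r = 0.894), Il17rd (0.893) and Rbms1 (0.892). Nearest to Acvrl1 were Kdelr1 (0.923), 1700003E16Rik (0.895) and Syngr4 (0.880), and to Tgfbr2 Ripor2 (0.917), Sfswap (0.871) and Abhd5 (0.866). Nearest to Bmp4 were Plcb2 (0.938), Zfp385b (0.928) and Tspear (0.923), and to Bmper Rwdd3 (0.807), Sipa1l1 (0.773) and Ankrd22 (0.766). Nearest to Smad6 were Siglec1 (0.912), Prps1 (0.902) and Rad51b (0.899), to Smad7 Wwc1 (0.901), Dclk2 (0.885) and Spaca3 (0.878), and to Id1 Trim14 (0.911), Zwilch (0.903) and Gtf3c5 (0.896). No member was among another's nearest 3, and Bmper had the lowest r to its nearest gene.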

How the data were processed

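The 34 ATAC-seq samples were analysed from the authors' summit lists, 15 shared by both replicates of a group and 4 of single floxed EB samples. Reads were aligned with Bowtie2 2.2.4 to mm10, and MACS2 and HOMER were used, per the submitters' processing notes; how replicates were joined is not given in the sources used here. The score deposited by the authors for each summit fits the −log10 of the q value, with every score above the q limit of 0.05. Depth per sample was not analysed here.

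Summits of all 19 lists were joined into positions within 250 bp and assigned to genes within 50 kb (RefSeq, GRCm38.p6). A position counted as gained in a list and absent from its control, or lost in reverse, as a share of positions in either list, with exact Clopper-Pearson intervals. The background was all positions within 50 kb of a protein-coding gene. The 4 floxed lists were compared by an exact permutation test. Joining and counting were tested on simulated data. Python 3.11.15, pandas 2.3.3, numpy 2.4.6 and scipy 1.17.1 were used. Alternatives were joining at 100 and 500 bp, a 10 kb window, scores of at least 10, lists cut to equal length, each floxed sample left out and the replicate number as a block. Leaving out positions at other genes was chosen after seeing the data.

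The 8 genes and the gene lists were chosen with earlier results of these data known. All 8 genes are named. Of the 41 pathway genes, up to 3 at each end of gained minus lost positions are named, with ties in order of symbol. For each member the 3 genes of most similar pattern are named, among those with at least 20 summits. No promoter is shown for Acvrl1, Id1 and Smad7.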

Additional observations from a re-analysis of the deposited data

Results flagged for a closer look

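With doxycycline, 3 genes moved in opposite directions in EB at 12 h and in fibroblasts on day 1, counted as gained minus lost positions. Eng stood at 4 in EB and −3 in fibroblasts. Acvrl1 stood at 2 in EB and −1 in fibroblasts, and Smad6 at 2 in EB and −2 in fibroblasts. The difference was not tested, since each group has 1 shared list, and the times differ between the tissues. Of all genes with a position in either list, 26.5% had more gained than lost in induced EB. In day-1 fibroblasts 62.3% of them had more lost than gained. The share of all genes that did both was not counted. Smad6 turned to −1 in EB when summits were joined at 100 bp, and to 1 in fibroblasts when lists were cut to equal length. Acvrl1 stood at 0 in EB at scores of at least 10, and at 0 in fibroblasts with equal lists, with joining at 100 bp and with a 10 kb window. Eng stayed above 0 in EB and below 0 in fibroblasts under each of the alternatives run. In fibroblasts it stood at only −1 with joining at 100 bp and with a 10 kb window. Neighbours' positions were among those counted for Eng. They lay at the ends of Ak1 and St6galnac6 and inside Fpgs for the gains in EB, and inside St6galnac6 and Ak1 for the losses in fibroblasts.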

How the results depend on the processing

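Of 171 alternative values for 27 results on whole comparisons, 135 stayed within the counting interval of the reported share or kept the direction of the difference. Joining at 500 bp and leaving out positions at other genes kept all 27. The length of a list limits every count, since a summit missing from a short list may lie below its calling limit. The causes of the other changes were not tested. Shares near all genes under the same alternative stand in parentheses.

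Joined at 100 bp, gained shares were 17.2% (17.5%) on day 1, 7.69% (7.96%) on day 2 and 7.69% (10.7%) in Flk1-positive day-7 fibroblasts against uninduced ones. In a 10 kb window, knockdown against no knockdown on day 0 lost 63.8% (42.4%). At scores of at least 10, fibroblasts on day 1 gained 2.44% (4.88%) and lost 46.3% (33%), lost 92.5% (75.9%) on day 2 and 97.5% (87.8%) on day 7, and Flk1-positive cells gained 0% (3%) and lost 87.5% (65.1%). Flk1-positive against unsorted day-7 cells gained 83.3% (66.8%) and lost 16.7% (3.82%), knockdown cells on day 1 gained 0% (3.4%) and lost 66.7% (47.2%), and knockdown on day 0 gained 0% (2.93%). Flk1-positive EB gained 5.66% (3.16%) and lost 60.4% (43.7%) against uninduced EB, and gained 0% (1.35%) and lost 56.2% (36.3%) against induced EB.

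With lists of equal length, fibroblasts lost 20.3% (21.2%) on day 1. Day-2 fibroblasts gained 18.9% (17.7%) and lost 35.1% (28.4%), and day-7 fibroblasts gained 12% (20.6%) and lost 52% (39.2%). Flk1-positive cells gained 15% (21.9%) and lost 42.5% (30.3%) against uninduced fibroblasts, and gained 20% (30.8%) against unsorted day-7 cells. Knockdown cells lost 25.7% (22.8%) on day 1, and knockdown on day 0 gained 22.8% (21.7%) and lost 26.3% (22.8%). Flk1-positive EB gained 29.8% (18.2%) and lost 23.8% (20.4%) against uninduced EB, and gained 19.4% (14.5%) and lost 11.1% (15.5%) against induced EB.

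Of 144 alternative gene values of gained minus lost positions, 78 were classed as the same as reported, and most others moved without reversing. With lists of equal length 9 gene values were the same, 12 moved and 3 reversed. A reversal needed opposite signs, so a change to or from an even balance counted as moved. The 7 reversals were as follows. Smad6 in induced EB stood at −1 when joined at 100 bp. In Flk1-positive against uninduced EB, Id1 stood at 1 in a 10 kb window and at 1 without positions at other genes, and Acvrl1 at −2 with scores of at least 10. Tgfbr2, Smad6 and Smad7 stood at 1 each on day 1 in fibroblasts with equal lists.

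Leaving out each floxed sample in turn gave differences from −25.5 to −14.5 positions. Shares in lists without 4OHT alone ran from 28.3% to 55.1%, and near all genes from 14.2% to 35.1%. They were 45% (23.8%) without the first and 55.1% (35.1%) without the second sample that had no 4OHT. With the replicate number as a block the difference was −20 (exact sign-flip test, p = 0.5, the smallest 2 pairs allow). The labels do not say whether same-numbered samples share a culture or batch. Their deviations correlated at 0.0162 over 31768 positions, which cannot settle this with so few lists. The difference was −4.5 in a 10 kb window, where the groups overlapped (exact permutation p = 0.667), and −4.5 at scores of at least 10.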
